A study of Mus musculus with 6 samples.

Results

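The genes described here are the axon guidance ligands and receptors: the Slit, netrin, semaphorin and ephrin ligands and the Robo, Unc5, plexin, neuropilin and Eph receptors. They were chosen by gene symbol from the RefSeq annotation of GRCm38, which gave 68 of 21887 protein-coding genes, 35 ligands and 33 receptors. Differential open chromatin regions were linked to a gene when the midpoint of the region lay inside the span of the gene, or, outside all spans, when this gene was the nearest within 100 kb. By this rule 41 of the 2965 regions that were more accessible in mutant cells (gained regions) and 2 of the 556 that were less accessible (lost regions) were linked to the 68 genes.

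The regions come from ATAC-seq, an assay that marks open DNA by where a transposase can insert, of fibroblasts grown from E13.5 mouse embryos. The 3 wild-type libraries were Acvr1+/+ and the 3 mutant libraries Acvr1R206H/+, heterozygous for the activating substitution of the BMP receptor ALK2 found in fibrodysplasia ossificans progressiva (FOP), in which bone forms in soft tissue. All cells were grown in the same serum-containing medium, and no treatment is named. The authors' lists give only positions and, by list, a direction. No value per library, depth, fold change or p-value was analysed here, so differences between replicates cannot be weighed, and every count below describes the lists. The labels leave unsaid whether each library had its own embryo.

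Guidance molecules were first described as cues that attract or repel growing axons. Slits bind Robo receptors, class 3 semaphorins bind complexes of neuropilins and plexins, ephrins bind Eph receptor tyrosine kinases on neighbouring cells, and netrins bind Unc5 receptors and DCC. Most act on the actin cytoskeleton through small GTPases, and outside the nervous system they also direct the migration and sorting of mesenchymal cells, blood vessel growth and the exchange of signals between bone-forming and bone-resorbing cells.

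The Slit and Robo genes with gained regions also carry a microRNA link, for which the sequences are shown here. Slit3 is a host gene of the microRNA miR-218, as is Slit2, and miR-218 is known to repress Robo1 and Robo2. The hairpin in Slit3 gives both mature arms below, from RefSeq on GRCm38.p6, plus strand, with the seed (bases 2 to 8) in capitals. The arm miR-218-5p, at chr11:35616840-35616860, is also made from the hairpin in Slit2 at chr5:48223966-48223986, with the same letters.
mmu-miR-218-5p: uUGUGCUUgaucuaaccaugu
mmu-miR-218-2-3p: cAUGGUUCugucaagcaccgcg

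The promoters of the 5 genes with the most gained regions, Robo2, Robo1, Slit3, Sema3a and Sema6d, are shown as the 250 bases before a transcription start, 5′ to 3′ on the strand of the gene, from RefSeq on GRCm38.p6. Where a gene had several listed starts, the start shown is the one nearest to most of its gained regions. Capitals mark matches on either strand to the SMAD motif GTCTG, the BMP-SMAD motif GGCGCC, the RUNX motif TGTGGT, the AP-1 motif TGANTCA, the TEAD motif GGAATG or the homeobox motif TAATTA. No match printed here overlaps another.
Slit3, chr11:35121206-35121455, plus strand: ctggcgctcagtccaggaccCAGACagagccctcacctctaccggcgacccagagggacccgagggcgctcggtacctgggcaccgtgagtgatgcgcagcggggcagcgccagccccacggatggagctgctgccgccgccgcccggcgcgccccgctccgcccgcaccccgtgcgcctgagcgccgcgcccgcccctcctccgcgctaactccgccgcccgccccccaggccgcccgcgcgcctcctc
Robo1, chr16:72662899-72663148, plus strand: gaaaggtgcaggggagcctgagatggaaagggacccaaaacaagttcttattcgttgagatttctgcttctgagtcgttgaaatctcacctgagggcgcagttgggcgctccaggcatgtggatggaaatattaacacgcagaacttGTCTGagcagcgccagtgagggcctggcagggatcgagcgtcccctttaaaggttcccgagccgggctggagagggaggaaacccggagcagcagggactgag
Robo2, chr16:74411826-74412075, minus strand: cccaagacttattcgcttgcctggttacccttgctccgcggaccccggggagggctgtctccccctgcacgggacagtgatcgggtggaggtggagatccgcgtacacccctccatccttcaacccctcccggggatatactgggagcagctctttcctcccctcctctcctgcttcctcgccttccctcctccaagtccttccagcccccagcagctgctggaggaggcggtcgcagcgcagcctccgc
Sema3a, chr5:13396534-13396783, plus strand: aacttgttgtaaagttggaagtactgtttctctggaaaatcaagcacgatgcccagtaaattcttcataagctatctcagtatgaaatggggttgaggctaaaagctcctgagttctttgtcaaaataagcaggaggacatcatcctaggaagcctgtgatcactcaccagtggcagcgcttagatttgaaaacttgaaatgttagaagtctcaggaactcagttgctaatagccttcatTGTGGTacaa
Sema6d, chr2:124653331-124653580, plus strand: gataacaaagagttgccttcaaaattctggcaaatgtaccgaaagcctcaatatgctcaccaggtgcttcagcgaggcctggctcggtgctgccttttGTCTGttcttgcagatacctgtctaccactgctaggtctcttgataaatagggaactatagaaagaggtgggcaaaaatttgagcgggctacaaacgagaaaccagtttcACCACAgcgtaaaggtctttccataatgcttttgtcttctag
Only the Slit3 start shown is at the 5′ end of its span. Those shown for Robo1, Robo2, Sema3a and Sema6d lie 636, 1036, 272 and 564 kb into the span. The Slit3 window is the richest of these in G and C, at 78.8% with 35 CpG, and the Sema3a window the poorest, at 40.8% with 2 CpG. The Slit3 and Robo1 windows hold 1 SMAD match each, the Sema6d window 1 SMAD and 1 RUNX match, the Sema3a window 1 RUNX match and the Robo2 window none of the motifs. Such matches are common: GTCTG was in 40.9% and TGTGGT in 12.4% of 21263 windows of protein-coding genes. Over the 75 windows of the 59 guidance genes in the promoter table, GTCTG was in 38 (50.7%), TGTGGT in 9 and GGCGCC in 15 (against 12.3% of all windows). The other motifs were in 3 windows for TGANTCA (against 6.13% of all windows), 8 for GGAATG (10.7%, against 11.7%) and 3 for TAATTA (against 4.31%). The E-box CANNTG was in 36 windows (48.0%, against 62.8%) and is not in capitals above. In the 21 windows of guidance genes with gained regions, GTCTG was in 9 (42.9%), TGTGGT in 3 (14.3%), GGCGCC in 1 (4.76%), GGAATG in 2 (9.52%), CANNTG in 11 (52.4%) and TGANTCA and TAATTA in 0. Guidance windows had a median of 64.4% G and C, against 55.6% over all. These letters are a description of the starts, since no gained region lay at one.

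Gained regions were linked to 19 of the 68 guidance genes (27.9%, exact 95% interval 17.7 to 40.1%). Over all protein-coding genes the share was 7.27%. Lost regions were linked to 2 guidance genes (2.94%, 0.358 to 10.2%), against 1.99% of all genes. No guidance gene had regions of both directions, and 47 had none. With only 2 genes having a lost region, this absence of overlap cannot show that the directions are kept apart. The share of all genes with both directions was not compared. Of the 43 linked regions, 4.65% were lost (0.568 to 15.8%), against 17.1% of the 2763 listed regions linked to any gene. This share rests on the link rule: another 8 regions lay within 100 kb of a guidance gene but belonged to other genes, and 5 of them were lost, near Epha8, Ephb2, Robo3, Sema4b and Sema6b. With them counted, 7 of 51 regions (13.7%) were lost. The intervals cover counting error only, and neighbouring regions are not independent. A set of 5 guidance genes with 3 or more gained regions each (7.35% of the 68, against 0.722% of all genes) held 23 of the 41 gained regions. Another 4 genes had 2 and 10 genes had 1.

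**Figure D1:**
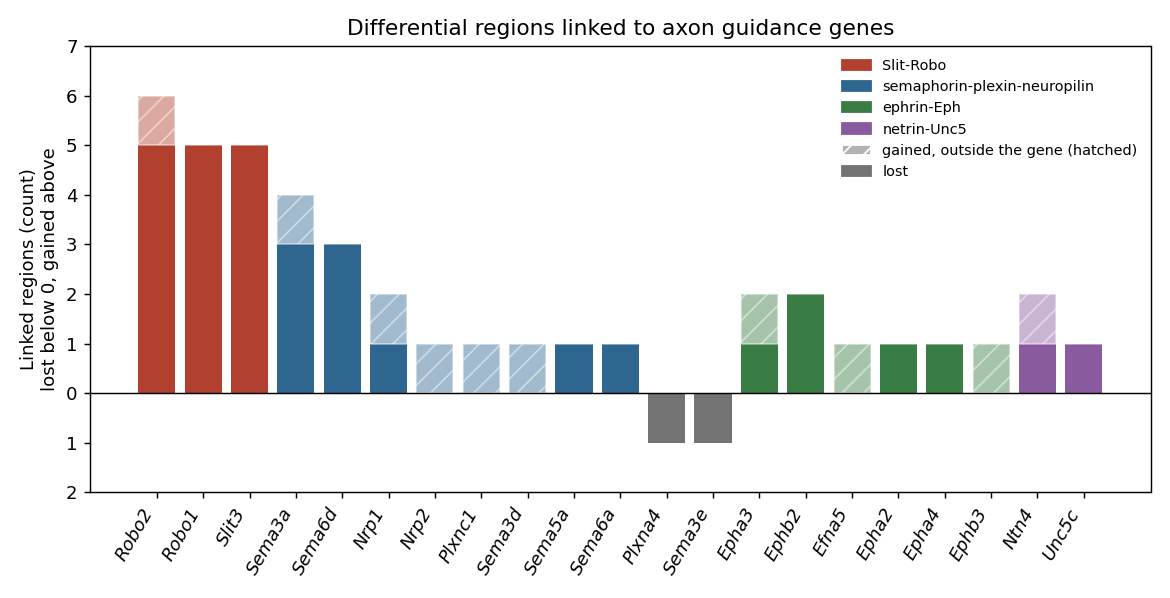
Number of linked regions for the 21 guidance genes that have any, with gained regions above 0 and lost regions below it. Colours give the ligand-receptor system and hatching the gained regions outside the gene. Robo2 with 6 gained regions stands highest, followed by Robo1 and Slit3 with 5 each, and the 2 lost regions are at Plxna4 and Sema3e.

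Guidance genes are long, and long genes hold more regions. The median span was 45.2 kb over the 68 genes and 17.2 kb over all protein-coding genes. It was 206 kb for the guidance genes with a gained region and 26.1 kb for those with no region. The comparison was therefore also made within classes of span, which were set after the data were seen. Among genes of 200 kb or more, 10 of 17 guidance genes had a gained region (58.8%, exact 95% interval 32.9 to 81.6%), against 43.1% of all 990 genes of that class. Among genes of 50 to 200 kb the share was 7 of 16 (43.8%, 19.8 to 70.1%), against 15.9% of 3955. Among genes under 50 kb it was 2 of 35 (5.71%, 0.70 to 19.2%), against 3.16% of 16942. The interval holds the share of all genes in the longest and the shortest class, and lies above it in the middle class. Span was not matched within a class. Except for Unc5a (60.9 kb) and Unc5b (69.0 kb), the guidance genes of the middle class spanned 104.9 kb (Ntn4) or more. The spans of all genes within this class were not compared with theirs. The part of gene length in the higher share of the middle class was therefore not tested. Inside spans there were 2.57 gained regions per Mb over the guidance genes and 1.30 per Mb over all protein-coding genes. Restricted to genes of 200 kb or more, the densities were 2.61 and 1.66 per Mb.

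**Figure D2:**
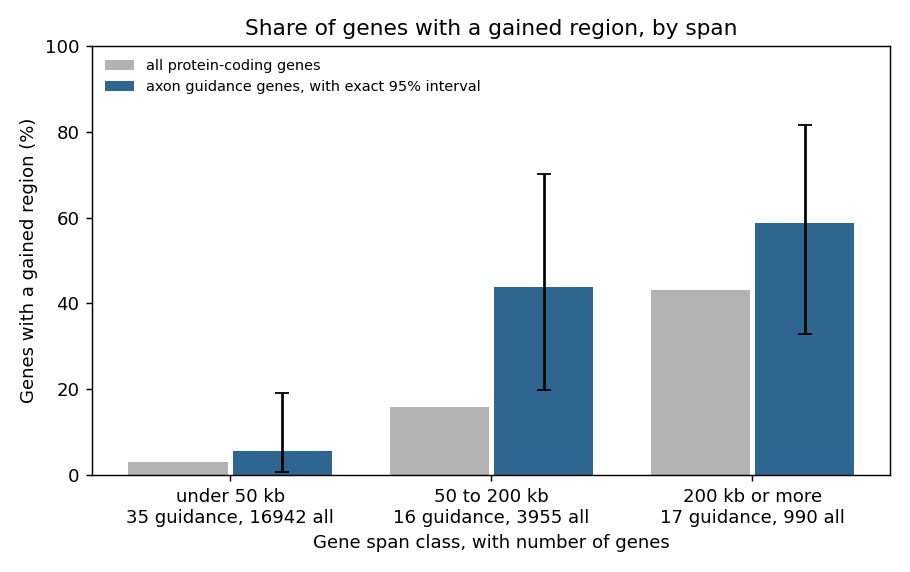
Share of genes with at least 1 gained region (y axis, %) in 3 classes of gene span (x axis), for all protein-coding genes (grey) and guidance genes (blue, with exact 95% intervals). The share rises with span in both sets, from 3.16 to 43.1% over all genes and from 5.71 to 58.8% over guidance genes.

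**Figure D3:**
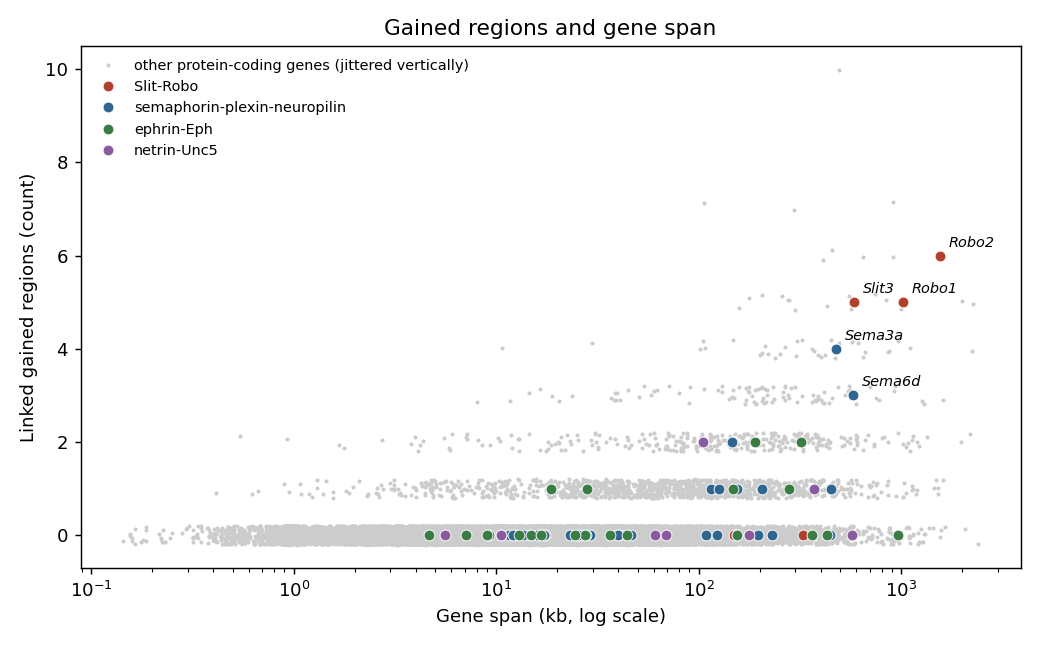
Gained regions linked to each gene (y axis, count) against its span (x axis, kb, log scale), with guidance genes in colour and other protein-coding genes as grey points moved slightly up or down to show their number. The 5 guidance genes with 3 or more gained regions all have spans of 479 kb or more, and grey points of like span reach similar counts.

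By the link to gene spans, the Slit-Robo system held 16 of the 41 gained regions (39.0%), at 3 of its 7 genes, ahead of 14 for semaphorins, plexins and neuropilins and 8 for ephrins and Eph receptors. Linked by the nearest gene end the order was different, with 2, 11 and 8 of 23, and at any distance it was 17, 18 and 14. The median span was 326 kb for the Slit-Robo genes, 40.5 kb for semaphorins, plexins and neuropilins and 27.8 kb for ephrins and Eph receptors. The part of gene length in these counts was not tested. Slit3 encodes a secreted ligand, studied in bone as well as in the nervous system. Its gene (chromosome 11, 35121456 to 35708507, plus strand, 587 kb) had 5 gained regions, all inside the span, or 8.52 per Mb. They lie at chr11:35267274-35267556, chr11:35281985-35282690, chr11:35447964-35448678, chr11:35527341-35528431 and chr11:35561743-35562472. Those are 146, 161, 327, 406 and 441 kb downstream of the start. The first pair is 14.9 kb apart and the last pair 34.2 kb. The most downstream region lies 54.7 kb before miR-218-5p, whose letters are given above. The other Slit genes, Slit1 (149 kb) and Slit2 (326 kb), had no linked region, and the listed region nearest to the miR-218-5p of Slit2 was 1109 kb away.

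Robo1 and Robo2 encode receptors for Slits and lie side by side on chromosome 16. Robo1 (72027518 to 73047491, plus strand, 1020 kb) had 5 gained regions, all inside its span: chr16:72225105-72225873, chr16:72267854-72268421, chr16:72648624-72649006, chr16:72799383-72800056 and chr16:72998530-72999103. The third of these is 14.3 kb upstream of the start whose promoter is shown above, which lies 636 kb into the span, and was the gained region nearest to any start of a guidance gene. The others were 137 to 336 kb from a start. Robo2 (73891976 to 75447443, minus strand, 1555 kb) had 6, of which 5 were inside. The inside regions were chr16:74447930-74448571, chr16:74506395-74506735, chr16:74512069-74512549, chr16:74593315-74593897 and chr16:74929548-74930086. The first 4 of them lie 36.4, 94.7, 100 and 182 kb upstream of the innermost listed start of Robo2, which is 1036 kb into the gene. The outside region, chr16:73877830-73878334, is 13.9 kb past the 3′ end.

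The stretch from Robo1 to Robo2 (3.42 Mb) was not a planned unit. It is bounded by genes with many gained regions, so a high density is partly built into the choice. It held 11 gained and 0 lost regions, or 3.22 gained per Mb, against 1.59 per Mb over chromosome 16. Of these, 10 lay inside the genes and 1 in the 0.844 Mb between them. Robo2 was among 9 genes of the genome with at least 6 gained regions, and Robo1 and Slit3 were among the 27 with at least 5, with 10 as the most at any gene. The shorter genes Robo3 (17.4 kb) and Robo4 (12.1 kb), the latter known from blood vessels, had none. With Epha3 and Ephb3, chromosome 16 carried 14 of the 41 guidance-linked gained regions (34.1%), close to the 33.2% of the guidance genes' total span that its 6 guidance genes take up.

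**Figure D4:**
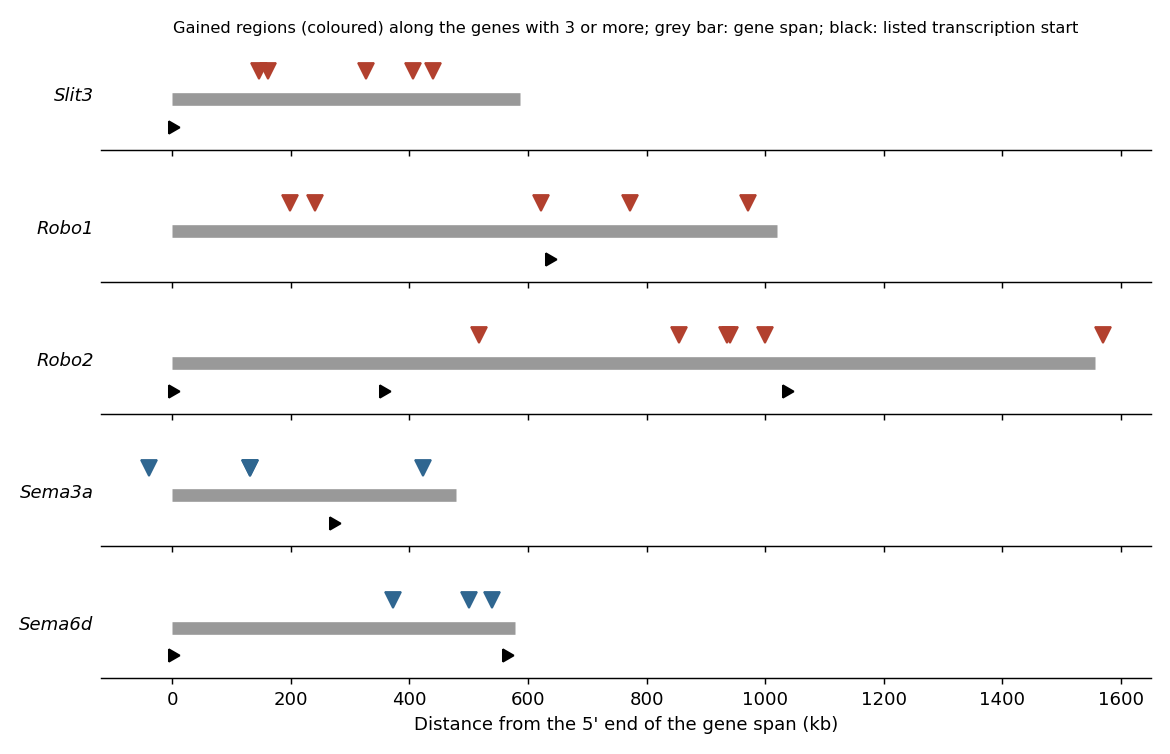
Gained regions (coloured triangles) along the spans (grey bars) of Slit3, Robo1, Robo2, Sema3a and Sema6d, drawn from the 5′ end of each span (x axis, kb), with the transcription starts of the promoter table in black. A pair of regions in Robo2 (5.74 kb apart) and a pair in Sema3a (1.01 kb apart) overlap at this scale. No triangle sits at a start, and 5 in Robo2 and all 3 in Sema6d lie upstream of the innermost start.

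The semaphorins, plexins and neuropilins had 14 gained regions at 8 of 31 genes and both lost regions. Sema3a, a secreted repellent that also acts on bone cells, had 4 gained regions. Inside its span (chromosome 5, 13124822 to 13603485, plus strand, 479 kb) were chr5:13255366-13255657, chr5:13256279-13256761 and chr5:13547056-13548494. The first and second are 1.01 kb apart, 131 and 132 kb into the span, and the third, 1439 bp wide, is 151 kb downstream of the listed start. The outside region, chr5:13084917-13085425, is 39.7 kb upstream of the span. Sema3d, a related secreted semaphorin, had 1, chr5:12655289-12655755, 66.6 kb past its 3′ end. Sema3e, which binds plexin-D1, had the lost region chr5:13987113-13987655, 37.9 kb upstream of its start.

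These 3 genes are neighbours, so the whole stretch of 1.87 Mb from Sema3d to Sema3e was also counted, which was decided on once the links were known. It held 8 gained and 2 lost regions, at 4.27 gained per Mb against 1.04 per Mb over chromosome 5. Between Sema3d and Sema3a (0.536 Mb) there were 5 gained regions and 1 lost. Of these, 3 gained regions and the lost one lay beyond 100 kb of any protein-coding gene and had no link. Between Sema3a and Sema3e (0.422 Mb) there were 0 gained and 1 lost.

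Sema6d, a transmembrane semaphorin that binds plexin-A1, had 3 gained regions inside its span (chromosome 2, 124089943 to 124667789, plus strand, 578 kb): chr2:124460930-124462102, chr2:124590484-124590781 and chr2:124628690-124629171. They lie 192, 62.9 and 24.7 kb upstream of the inner start whose promoter is shown above. Sema5a, a transmembrane semaphorin with thrombospondin repeats, had 1 at chr15:32274022-32274477, 29.4 kb into its 452 kb span. Sema6a, the transmembrane relative of Sema6d, had 1 inside its 126 kb span. The other 14 semaphorin genes (Sema3b, Sema3c, Sema3f, Sema3g, Sema4a, Sema4b, Sema4c, Sema4d, Sema4f, Sema4g, Sema5b, Sema6b, Sema6c and Sema7a) had no linked region. All class 4 genes on the list were among them. Apart from Sema4d (108 kb) their spans were under 50 kb, a class in which 3.16% of all genes had a gained region.

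Among the receptors of this system, both neuropilin genes had gained regions, Nrp2 only outside the gene. Nrp1, a co-receptor for class 3 semaphorins and for VEGF, had chr8:128419968-128420371, 61.1 kb downstream of its start, and chr8:128261719-128262083, 96.7 kb upstream of the gene. The latter lies inside the long noncoding gene A930035F09Rik. Nrp2 had chr1:62887643-62888481, 69.4 kb past its 3′ end. Plxnc1, which encodes the receptor of semaphorin 7A, had chr10:95033229-95033763, 88.5 kb upstream of the gene. Plxna4, a plexin that works with neuropilin 1 for semaphorin 3A, had the lost region chr6:32570468-32570899, 17.5 kb inside one end of its 444 kb span. Plxna1, Plxna2, Plxna3, Plxnb1, Plxnb2, Plxnb3 and Plxnd1 had no linked region.

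The ephrin and Eph genes had 8 gained regions at 6 of 22 genes and no lost region. Most belonged to the receptors, with 7 regions at 5 of 14 Eph genes. Ephb2, a receptor for B-type ephrins, had chr4:136649387-136650826 and chr4:136761645-136762241, both inside its 189 kb span. The former, 1440 bp wide, was the widest gained region linked to a guidance gene and lies 2.57 kb inside the 3′ end. A lost region, chr4:136598254-136599522, lies 51.2 kb from it and is linked to Kdm1a. Epha3 had chr16:63600220-63600570 inside the gene and chr16:63960826-63961206, 96.8 kb upstream of it. Epha4 had chr1:77431881-77432271, 83.0 kb downstream of its start. Epha2 had chr4:141325628-141326089, 24.6 kb downstream of its start and 3.53 kb inside the 3′ end. Epha2 (28.2 kb) and Ephb3 (18.7 kb) were the shortest guidance genes with a gained region. That of Ephb3, chr16:21269756-21270300, is 46.7 kb past the gene, inside the noncoding gene Gm16863.

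Among the 8 ephrin genes only Efna5, which encodes a membrane-anchored A-type ephrin, had a linked region: the gained chr17:62524779-62525501, 77.8 kb past its 3′ end. Efna1, Efna2, Efna3, Efna4, Efnb1, Efnb2 and Efnb3 had none, and their spans were all under 50 kb. Epha1, Epha5, Epha6, Epha7, Epha8, Epha10, Ephb1, Ephb4 and Ephb6 also had none. Among these Epha6 (969 kb), Ephb1 (433 kb) and Epha5 (363 kb) are as long as many genes with regions.

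The netrins and their Unc5 receptors had 3 gained regions at 2 of 8 genes. Ntn4 encodes netrin-4, a basement membrane protein that binds laminin. It had chr10:93678686-93679271, 37.9 kb downstream of its start and inside the noncoding gene Gm15915, and chr10:93776656-93777628, 31.2 kb past its 3′ end. Unc5c, a receptor for repulsion by netrin, had chr3:141711584-141711993, 246 kb into its 369 kb span. Ntn1, Ntn3, Ntn5, Unc5a, Unc5b and Unc5d had none, although Unc5d spans 573 kb.

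Ligands and receptors were both among the genes with gained regions: 8 of 35 ligand genes with 18 regions and 11 of 33 receptor genes with 23. The receptors were the longer genes, with a median span of 69.0 kb against 29.0 kb.

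The gained regions of guidance genes lay mostly inside genes and far from starts. Inside a span were 31 of 41 (75.6%, exact 95% interval 59.7 to 87.6%), against 58.7% of the 2290 gained regions linked to any gene. The 10 outside lay 13.9 to 96.8 kb from the gene, with a median of 68.0 kb. The distance to the nearest start, counting the listed starts and the 5′ end of the span, had a median of 136 kb over the 40 regions whose gene was in the promoter table. Over 1785 gained regions of all such genes it was 55.0 kb. None of the 40 was within 10 kb of a start, which allows a share of up to 7.5%, against 10.8% of the 1785. Upstream of the nearest start lay 12 and downstream 28. A region inside a gene whose only start is at its 5′ end is downstream by construction. The split was not compared with that of the 1785. Genes of 200 kb or more held 24 of the 31 inside regions, against 697 of the 1345 inside regions over all protein-coding genes. Long spans can hold more regions inside and place them farther from a start. The part of gene length in the inside share and in these distances was not tested. Only 4 of the 41 had another listed region within 10 kb, the pairs in Sema3a and Robo2 named above, and the median distance to the nearest listed region was 111 kb, against 104 kb over all gained regions. The regions were 539 bp wide at the median (283 to 1440 bp), against 573 bp for the other gained regions. Exon and intron are not assigned, as the annotation used gives gene ends only.

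Near the link limit of 100 kb, the gained regions of Plxnc1 (88.5 kb), Nrp1 (96.7 kb) and Epha3 (96.8 kb) were just inside, and chr5:12696220-12696649 at 107 kb from Sema3d and chr11:34980036-34980692 at 141 kb from Slit3 were just outside. With links at any distance, Efnb2, which encodes ephrin-B2, was the nearest gene to 5 gained regions at 513 to 1605 kb, and Plxna2 to 1 at 355 kb. Assigned by the nearest gene end instead of the span, Slit3 and Unc5c kept no region and Robo1 and Robo2 kept 1 each, because 18 of the 31 inside regions lie more than 100 kb from either end of their gene. The count of gained regions was then 23 at 17 genes. With noncoding genes also allowed as the nearest gene, Efna5, Ephb3, Nrp2, Plxnc1 and Sema3d lost their only region, which left 14 guidance genes with a gained region.

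Other genes of the guidance pathway, a list of 60 co-receptors, adhesion partners and intracellular effectors, also had regions. Gained regions were linked to 13 of them (21.7%), with 17 regions in all, and lost regions to 6 (10.0%), against the 7.27 and 1.99% of all genes given above. The median span of the list was 114 kb, and 15.9% of all genes of 50 to 200 kb had a gained region. For genes of 200 kb or more that share was 43.1%. The list was not compared within classes of span. Chn2, a Rac-inactivating chimaerin, Dscam, an adhesion receptor that also binds netrin, Srgap1, a GTPase-activating protein downstream of Robo receptors, and Trio, a guanine nucleotide exchange factor, had 2 gained regions each. Met, the hepatocyte growth factor receptor, which pairs with plexin-B1, and Rgma, a repulsive guidance molecule and BMP co-receptor, had 1 gained and 1 lost each. Srgap2 and Srgap3, relatives of Srgap1, the GTPase gene Cdc42 and Mical2, an actin-oxidising enzyme, had 1 lost region each and no gained one; these 4 were named after their values were seen. The netrin receptor gene Dcc had none.

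Markers of cell types were read from the same lists, which hold changed regions only and so cannot show which cells were present. Of 14 fibroblast markers 5 had gained regions (Lum and Prrx1 with 2 each, Dcn, Fn1 and Postn with 1 each) and none had a lost one. That is 35.7%, against the 7.27% of all genes with a gained region. Of 11 neuronal markers 1 had a gained region (Map2, 9.09% of the list), and the 8 glial and Schwann cell markers had none. Of 8 endothelial markers 2 had gained regions (25.0%, Erg with 2 and Emcn with 1) and 1 a lost region (12.5%, Cdh5), against 1.99% of all genes with a lost region. Median spans were 33.9 kb (fibroblast list), 69.0 kb (neuronal), 10.1 kb (glial and Schwann cell) and 53.7 kb (endothelial). None of these lists was compared within classes of span. Whether other cell types had a part in the regions of guidance genes was not tested.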

How the data were processed

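ATAC-seq was run on embryonic fibroblasts, with 3 libraries each of wild-type and FOP mutant cells. The authors deposited a pair of region lists with chromosome, start and end only; the direction comes from the name of each list, and the deposited values are positions with no score. Per the submitters' processing notes, the builds were mm10 and GRCm38 and the tools MACS2, DESeq2, featureCounts, bedtools, Bowtie2, SAMtools and Trimmomatic; versions, parameters, the cutoff, peak calling per library or pooled, and the treatment of the transposase offset were not given in the sources used here. Only peaks that passed that cutoff are listed, and depth per library is unknown.

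Regions were linked to genes of RefSeq GRCm38.p6 with Python 3.11.15, pandas 2.3.3 and SciPy 1.17.1. Shares carry exact (Clopper-Pearson) 95% intervals, which cover counting error only; the limit for a count of 0 is 3 counts. Links were checked on simulated positions. Strand and starts came from RefSeq promoters, found for 59 of the 68 genes. No test over libraries, set test or resampling was made. The members and lists were chosen with earlier results of these data known. All guidance genes with a linked region are named, with up to 6 pathway genes with the most regions and all cell type markers with one. Motifs in regions were planned and not run, as no genome sequence was used here.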

Additional observations from a re-analysis of the deposited data

How the results depend on the processing

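Of 42 values recomputed under 7 other ways of linking or filtering (6 values each), 31 stayed within 1.5 times the count, or within the exact interval of the share, and 11 moved. With links within 10 kb there was 1 lost region at 1 gene, and by construction 100% of gained regions were inside a span. That share was 59.6% with links at any distance, 56.5% with links by the nearest gene end and 93.9% with all annotated genes as candidates. Links by the nearest gene end gave 23 gained regions. With regions of at least 500 bp there were 24 gained regions at 12 genes and 1 lost region at 1 gene. Gained regions outnumbered lost ones in all 7 settings. They also did over the whole lists (2965 against 556), so this is not a result about the guidance genes. No paired analysis was possible because the lists hold no value per library, and for the same reason no library could be left out. A stricter cutoff could not be tried, since the regions carry no score. With no depth and no unchanged peaks, a gene without a listed region cannot be told from one with too little signal.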
